A study of Mus musculus with 5 samples.

Results

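The EphA receptors Epha3, Epha4, Epha5, Epha7 and Epha8 and the ephrin-A ligands Efna1 to Efna5 were followed in newborn mice, in the part of the thalamus that relays retinal signals to the visual cortex, the dorsal lateral geniculate nucleus (dLGN). The members were taken by gene symbol: every probe set that the platform annotation assigned to 1 of these 10 genes was used, of 18193 genes with a single symbol on the array, which gave 27 of the 45037 probe sets tested. A probe set is a group of short probes that together read 1 stretch of transcript. The 10 genes were chosen with earlier results of these data known. Their shares, set below beside those of the whole array, therefore describe these genes and are no independent test of them. The knockout group (Sema6A-/-) had both copies of Sema6a disrupted and the control group was heterozygous for the same disruption, so every animal of the study carried at least 1 disrupted copy and no wild-type tissue was compared. All mice were on a C57BL/6 background and were taken at postnatal day 0. There were 2 knockout arrays and 3 control arrays. Per the series description each array read a pool of dLGN tissue from pups of 1 genotype and more than 1 litter, so a p-value measures the spread between pools, and the number of arrays limits the precision.

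Eph receptors are receptor tyrosine kinases of the cell surface, and the A-class ephrins that bind EphA receptors are held in the membrane by a lipid anchor. Contact between a receptor-bearing growth cone and a cell with the ligand usually repels the growth cone, and ligand-bearing cells can also be signalled to in the reverse direction. In the visual thalamus, gradients of ephrin-A ligands across the dLGN order the terminals of retinal axons that carry EphA receptors, and the thalamic neurons' own EphA receptors take part in sorting their axons on the way to the cortex. The question of the comparison was which transcripts of the newborn dLGN differ when Sema6a, a transmembrane semaphorin of axon guidance, is lost.

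For 8 of the 10 genes, some probe set had both knockout pools below all of the control pools, against 23.3% of all genes and 33.2% of those with several probe sets, as 8 of the members have. No probe set of these 10 genes, called the family here, read higher in both. This depends on the genes taken. Of 6 other EphA and EphA-binding ephrin genes at their brightest probe set, 4 had both knockout arrays above the controls, among them Epha1 and Epha2. Both lay below in 0 of the 6, and the shares of all genes are 15.8% above and 13.9% below. Across the 27 probe sets, 17 (63.0%) had both knockout arrays below all 3 controls, against 14.5% of all probe sets tested, and 0 had both above, against 12.9%. The median log2 fold change over the 27 probe sets was -0.49, against -0.01 over all probe sets, with 24 values below 0 and 3 above, against 51.5% and 48.5% of all probe sets. With each gene read only at its brightest probe set the median was smaller, -0.19, and 5 of the 10 genes had both knockout arrays below the controls, against 13.9% of all genes. None of these differences passed the threshold for the whole array: 0 of the 27 had an adjusted p under 0.05 in limma (a linear model with a variance shared across probe sets, Benjamini-Hochberg adjustment), where 0.0733% of all probe sets did. The smallest adjusted p of the family was 0.148. At an unadjusted p under 0.05, 14 probe sets (51.9%) were lower and 0 higher, against 5.99% lower and 5.16% higher over all probe sets. Levels of different probe sets are not compared here, since probes differ in how well they bind, but 23 of the 27 were brighter than the median probe set of the array. The other 4 belonged to Epha3, Efna1, Efna4 and Efna5. Probe sets of 1 gene read transcripts of that gene and are not independent of each other. In whole tissue, fewer cells of a type and less RNA per cell cannot be told apart.

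The arrays differed in ways that bear on these values. At its brightest probe set Sema6a read 7.81 and 7.85 on the log2 scale in the knockout and 10.39 to 10.65 in the control, and its 2 other probe sets were lower in the knockout arrays too. Array medians lay between 6.39 and 6.42. Of 15 markers of thalamic relay neurons, 14 lay above 6.39, the median of all probe sets, in both groups. The mean level of the list was 10.97 and 11.35 in the knockout arrays and 10.87 to 11.08 in the controls. Single relay markers moved in opposite directions, which a mean can hide. Both knockout arrays were above every control for 5 of them and below for 3, against 15.8% and 13.9% of all genes. Slc6a4 read only 7.98 in knockout replicate 1, whereas replicate 2 gave 10.60 and the controls 10.60 to 10.85. Gbx2 and Calb2 were higher in the knockout, by 1.97 and 1.13. Knockout replicate 1 held high levels of prethalamic and GABAergic genes, with a list median 2.62 above the control mean over 17 genes, whereas knockout replicate 2 lay 0.02 below it. The mean level of that list was 8.10 and 5.73 in the knockout arrays and 5.44 to 5.90 in the controls, with 11 of the genes above the median in the knockout and 6 in the control. Microglia and macrophage genes were high in both knockout arrays, with list medians 1.64 and 1.56 above the control mean. Their mean levels were 8.25 and 8.02 against 6.50 to 6.64, and 15 of 16 genes lay above every control, against 15.8% of all genes. For the 8 other marker lists the medians of the knockout arrays lay between -0.98 and 0.34. Some of their genes also lay apart from every control in both knockout arrays. Of 7 oligodendrocyte lineage genes 5 were above and 1 below, and of 5 retinal ganglion cell genes 3 and 1. Of 7 habenula genes 0 were above and 3 below. Control replicate 3 stood apart for meninges and fibroblasts, with a mean level of 8.57 over 6 genes against 6.65 to 7.15 in the other arrays. It was also the highest control at many probe sets of the family, among them 1451991_at of Epha7, 1425574_at of Epha3 and 1421796_a_at of Efna5. The log2 fold changes there without it were -1.07, -0.75 and -0.59. Control replicate 3 was likewise the highest at 1421929_at, 1439757_s_at and 1456863_at of Epha4, where the values without it were -0.90, -0.85 and -0.80. At its brightest probe set Xist stood at 4.10 in knockout replicate 2, against 10.79 to 11.54 elsewhere, and no label states the sex of the pups. The array's own Gapdh controls, which compare signal from the 3′ and the 5′ end of that transcript, differed by 2.34 in knockout replicate 1, by 0.96 in replicate 2 and by 0.77 to 1.32 in the controls. The part of these differences between arrays in the results below was not tested.

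**Figure D1:**
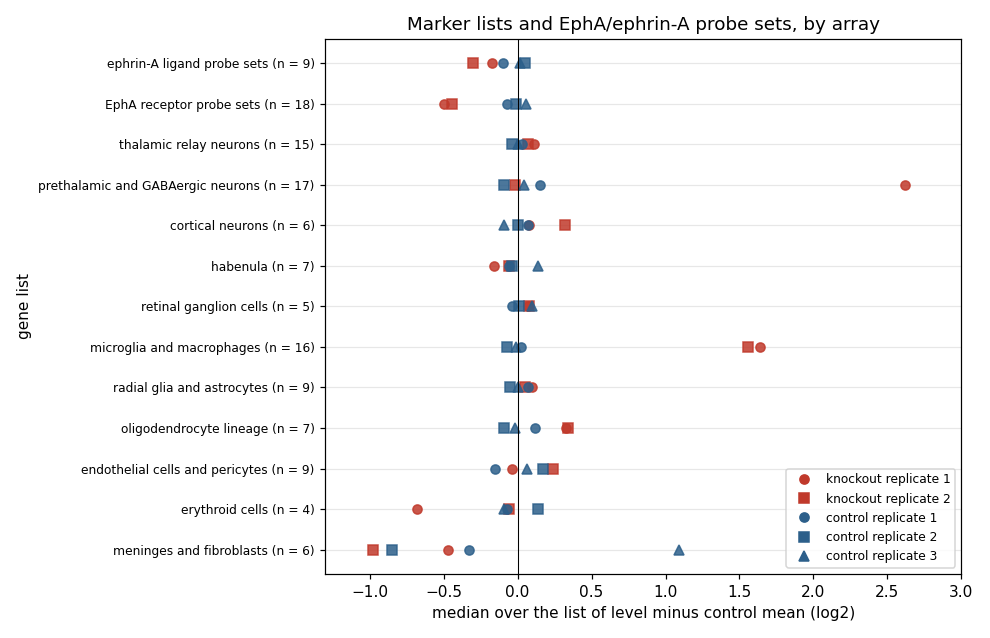
Median difference from the control mean (log2, horizontal axis) over all 18 EphA probe sets, all 9 ephrin-A probe sets and each marker list. The lists are of cell types the tissue could hold, with each marker read at the brightest probe set of its gene. A symbol is 1 array. Both knockout arrays (red) sit below the controls (blue) for the receptors and the ligands, both sit near 1.6 for microglia, and only replicate 1 stands apart, at 2.62, for prethalamic and GABAergic genes.

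Epha7 was the receptor with the smallest p of the family and the member gene with the most probe sets below the controls, 4 of 4. Epha7 is expressed in graded fashion within the embryonic thalamus and takes part in the topography of thalamocortical axons. At probe set 1451991_at it read 7.84 and 7.54 in the knockout arrays and 8.84, 8.68 and 9.24 in the controls. The groups were 0.84 apart at their nearest arrays, more than the 0.56 that separated the highest and lowest control. The knockout was 2.34-fold lower, with a log2 fold change of -1.23 ± 0.20 (SE; limma unadjusted p = 0.00129, adjusted p = 0.148).

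The brightest probe set of Epha7, 1443485_at, read 10.36 and 10.19 in the knockout and 10.85, 10.86 and 10.95 in the control. Here the controls spanned only 0.10 and the log2 fold change was -0.61 ± 0.11 (SE; limma adjusted p = 0.174). At 1452380_at the values were 10.16 and 9.37 against 10.82, 10.31 and 10.41, where replicate 1 lay 0.16 below the lowest control and replicate 2 far below all of them. At 1427528_a_at they were 7.65 and 7.12 against 8.16, 8.12 and 7.91. Knockout replicate 2 was the lower of the knockout arrays at all 4 probe sets of Epha7. From the brightest to the dimmest set, the log2 fold changes were -0.69, -1.15, -1.37 and -0.94 without replicate 1 and -0.53, -0.36, -1.08 and -0.41 without replicate 2.

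Epha3, a receptor that binds ephrin-A5 strongly, had 3 of 4 probe sets below the controls. At 1425575_at it read 9.92 and 9.88 in the knockout arrays and 10.30, 10.50 and 10.37 in the controls, a log2 fold change of -0.49 ± 0.11 (SE; limma adjusted p = 0.254). At 1425574_at the values were 6.13 and 5.71 against 6.67, 6.67 and 7.15 (-0.91 ± 0.22, SE). The dimmest set, 1426057_a_at, read 4.26 and 4.59 against 4.99, 5.26 and 5.21, a level passed by most probe sets of the array. The brightest set, 1455426_at, differed from these: it read 11.17 and 10.83 against 11.14, 11.21 and 11.12, so that replicate 1 fell among the controls and only replicate 2 was low. Its log2 fold change was -0.15, with a 95% interval of -0.49 to 0.19.

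Epha4, the receptor of the family that binds both ephrin-A and ephrin-B ligands, was low chiefly in knockout replicate 1. At 1421929_at the knockout arrays read 10.49 and 11.58 and the controls 11.85, 12.02 and 12.33. Both knockout arrays lay below the controls, but their differences from the control mean were -1.57 in replicate 1 and only -0.48 in replicate 2. The log2 fold change of -1.03 had a standard error of 0.34 (limma adjusted p = 0.377), and it was -0.48 without replicate 1 and -1.57 without replicate 2.

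The sets 1439757_s_at, whose probes can match more than 1 transcript (10.03 and 11.18 against 11.40, 11.51 and 11.88) and 1456863_at (8.26 and 9.40 against 9.64, 9.62 and 10.37) had the same shape. At 1421928_at the values were 7.66 and 8.80 against 8.94, 9.54 and 8.32, so replicate 2 fell among the controls. The brightest set of Epha4, 1429021_at, read 12.11 and 12.42 against 12.47, 12.40 and 12.32, a log2 fold change of -0.13 with a 95% interval of -0.48 to 0.21. Replicate 1 is the array with the larger 3′ to 5′ difference, the prethalamic genes and the low Slc6a4 given above. Their part in the low Epha4 values was not tested.

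Epha8, a receptor best known from the midbrain, had a single probe set, 1419341_at. It read 9.53 and 9.88 in the knockout arrays and 10.09, 10.23 and 10.24 in the controls. The highest knockout array lay 0.21 below the lowest control, while the controls spanned 0.15. The log2 fold change was -0.49 ± 0.15 (SE), a 1.40-fold difference (limma unadjusted p = 0.0178, adjusted p = 0.339). Without knockout replicate 1 it was -0.31.

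Epha5, a receptor of retinal and thalamic axons, was the receptor whose groups overlapped at all 4 probe sets. The brightest, 1437920_at, read 11.05 and 11.61 in the knockout and 11.47, 11.22 and 11.64 in the control. At 1435286_at the values were 10.60 and 10.91 against 10.54, 10.62 and 10.66, and at 1444690_at 10.32 and 10.59 against 10.40, 10.12 and 10.28. The dimmest, 1420557_at, read 7.18 and 7.59 against 7.26, 7.42 and 7.49. The log2 fold changes lay between -0.11 and 0.19, and replicate 2 was above replicate 1 at each set. The 95% intervals reached from -0.65 to 0.42 at the brightest set and from -0.18 to 0.55 at 1444690_at. At 1435286_at and 1420557_at they were -0.18 to 0.49 and -0.42 to 0.41. Differences such as the -0.61 at the brightest set of Epha7 lay within the interval of the brightest set of Epha5 only.

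**Figure D2:**
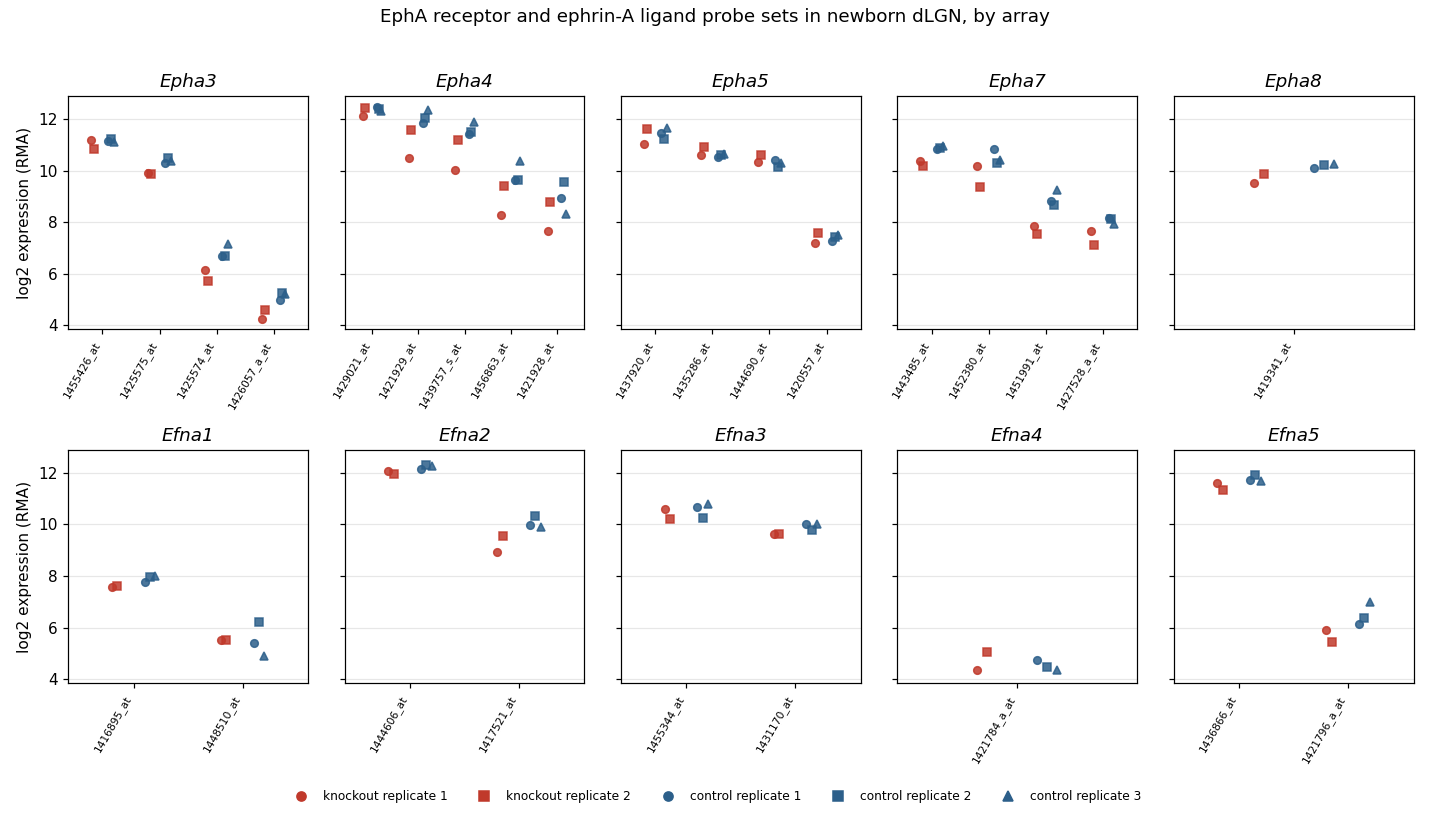
Deposited log2 expression (vertical axis) at each of the 27 probe sets, grouped by gene, with a symbol for each array; the sets of a gene run from the brightest to the dimmest. The knockout arrays (red) lie below the controls (blue) at all 4 probe sets of Epha7 and overlap with them at all 4 of Epha5; replicate 1 (red circle) is the low array of Epha4.

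Of the ligands, Efna2 and Efna5, the ephrin-A genes best known from retinotopic mapping, had both of their probe sets below the controls. Efna2 read 8.92 and 9.55 in the knockout arrays and 9.96, 10.32 and 9.89 in the controls at 1417521_at. The log2 fold change was -0.82 ± 0.24 (SE), a 1.76-fold difference (limma unadjusted p = 0.0153, adjusted p = 0.326), and without replicate 1 it was -0.50. At the brighter set, 1444606_at, the values were 12.08 and 11.95 against 12.13, 12.32 and 12.25. The groups were only 0.06 apart there, less than the 0.19 between the controls, and the log2 fold change was -0.22.

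Efna5 read 11.62 and 11.35 in the knockout arrays and 11.72, 11.90 and 11.69 in the controls at its brighter set, 1436866_at. That difference of -0.29 had a 95% interval of -0.63 to 0.06 and was -0.16 without knockout replicate 2. At 1421796_a_at the values were 5.92 and 5.42 against 6.14, 6.38 and 6.99, a log2 fold change of -0.83 ± 0.29 (SE; limma adjusted p = 0.401). The level of this second set lay below the median of the array, and the difference was -0.59 without control replicate 3 and -0.58 without knockout replicate 2.

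Efna1, Efna3 and Efna4 lie on chromosome 3 as near neighbours in the RefSeq annotation (GRCm38.p6). At 1431170_at Efna3 read 9.63 in both knockout arrays and averaged 9.93 ± 0.12 in the controls (SD, n = 3), of which the lowest, replicate 2, read 9.79. The equal knockout values narrowed the standard error of 0.12 around the log2 fold change of -0.30. At the brighter set, 1455344_at, it read 10.60 and 10.19 against 10.67, 10.24 and 10.78, and the groups overlapped. Efna1 read 7.59 and 7.62 against 7.75, 7.94 and 7.99 at 1416895_at, with both knockout arrays just below the controls (-0.29 ± 0.12, SE). At the other set of Efna1, 1448510_at, both knockout arrays read 5.51, in the middle of controls at 5.40, 6.23 and 4.90. Efna4 had 1 probe set, 1421784_a_at, at 4.35 and 5.06 in the knockout and 4.73, 4.47 and 4.37 in the control. This level was lower than that of most probe sets, and the difference of 0.19 had a 95% interval of -0.41 to 0.79.

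**Figure D3:**
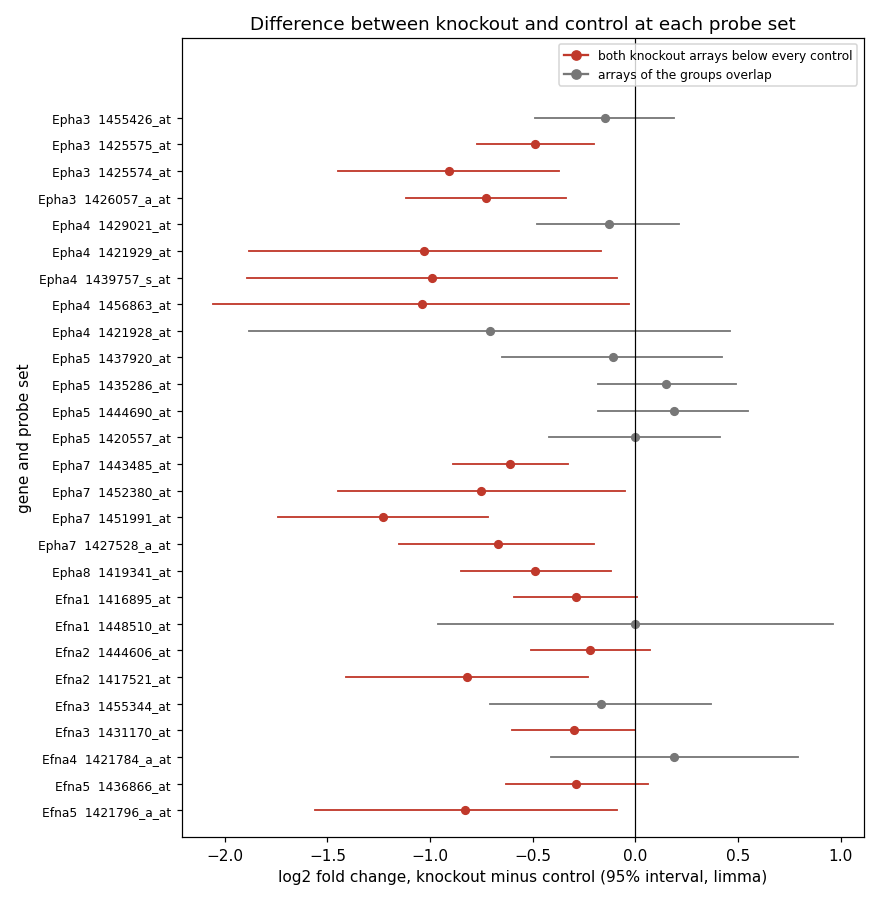
Log2 fold change of the knockout against the control (horizontal axis) at each probe set, with its 95% interval from limma; red marks the 17 probe sets with both knockout arrays below every control. The point of Epha7 at 1451991_at lies farthest to the left, at -1.23, and those of Epha5 lie on either side of 0.

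Receptors and ligands were also counted apart. Of 18 receptor probe sets 11 (61.1%) lay below every control in both knockout arrays, with a median log2 fold change of -0.64, and of 9 ligand probe sets 6 (66.7%), with a median of -0.29. At an unadjusted p under 0.05, 11 of the receptor sets and 3 of the ligand sets were lower. Over all probe sets the shares were 14.5% below every control and 5.99% at that p. The difference between receptors and ligands was not tested.

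The family was low in each knockout array taken alone, and 17 of the 27 probe sets lay below every control in both. The sizes of the differences varied between the arrays. In knockout replicate 1, 22 of 27 probe sets lay below every control (81.5%, against 34.1% of all probe sets), and in replicate 2, 19 did (70.4%, against 26.6%). The median difference from the control mean was -0.39 in replicate 1 and -0.37 in replicate 2. Epha4, Epha8 and 1417521_at of Efna2 were lower in replicate 1, whereas Epha7 and Efna5 were lower in replicate 2. Over the family, replicate 1 was the lower array at 14 probe sets and replicate 2 at 11, and at 2 they were equal within 0.005. With control replicate 2 or 3 left out, the 14 probe sets with a limma unadjusted p under 0.05 became 8 and 7. Of all probe sets, 4.42% and 4.22% were lower at that p. The probe sets with the knockout values below every remaining control then numbered 18 and 18, against 19.6% and 19.4% of all probe sets. Without knockout replicate 1 they numbered 19, against 26.6%. At 1435286_at, 1444690_at and 1420557_at of Epha5 and at the set of Efna4, knockout replicate 2 lay above every control. The log2 fold changes there without knockout replicate 1 were 0.31, 0.32, 0.20 and 0.54. The share of all probe sets above every control in that array was not counted.

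**Figure D4:**
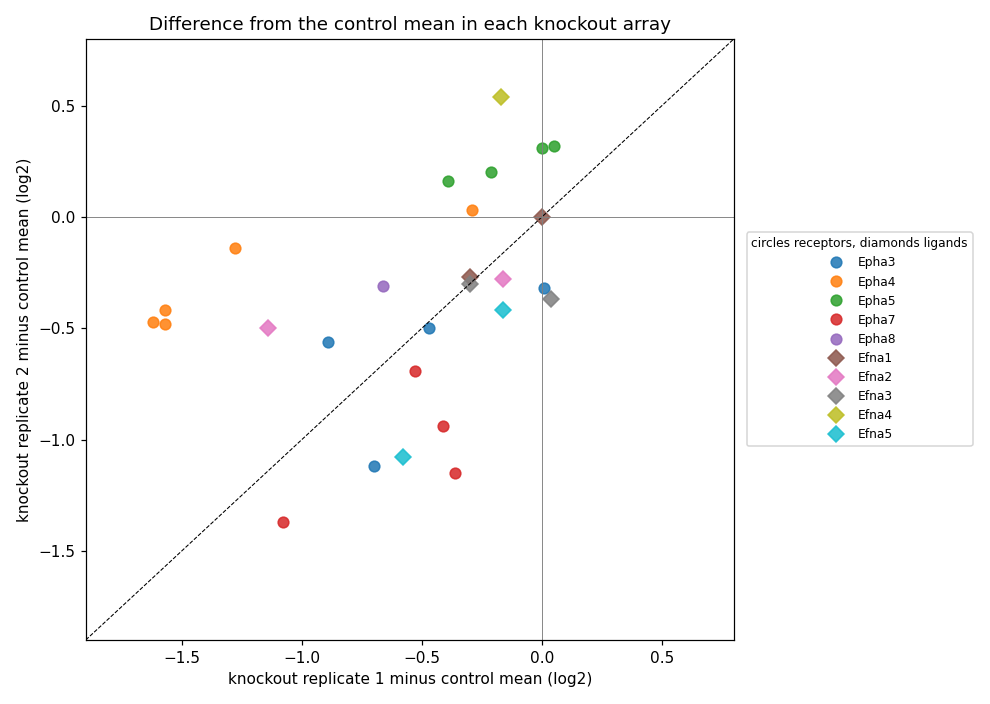
Difference from the control mean (log2) in knockout replicate 1 (horizontal axis) and replicate 2 (vertical axis) for each of the 27 probe sets; the dashed line marks equal differences. Epha4 lies to the left of the dashed line, with replicate 1 down to -1.62, and Epha7 lies below it, with replicate 2 down to -1.37.

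Of 8 genes with several probe sets, the brightest set had the smallest difference in 6, namely Epha3, Epha4, Epha7, Efna2, Efna3 and Efna5. The share of such genes over the whole array was not counted. Epha4 gave the widest span, from -0.13 at the brightest set to -1.04 at 1456863_at. With the probe sets of each gene averaged, 6 of the 10 genes had both knockout arrays below the controls, against 16.4% of all genes, and 0 passed the adjusted threshold in limma, which 0.544% of genes did. On that basis Epha7 gave -0.82 ± 0.16 (SE) and Epha3 -0.57 ± 0.11 (SE), each with a limma adjusted p of 0.112. Epha4 gave -0.78, Efna5 -0.56, Efna2 -0.52, Epha8 -0.49, Efna3 -0.23 and Efna1 -0.14, while Epha5 (0.05) and Efna4 (0.19) were above 0.

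Upstream sequences are shown for the 4 genes whose every probe set lay below the controls, Epha7, Epha8, Efna2 and Efna5. This rule is easier to meet with few probe sets: Epha8 had 1, Efna2 and Efna5 had 2 each and Epha7 had 4. How many genes of the whole array meet it was not counted. Whether the 4 genes are regulated together was not tested. Each is the 150 bases just before the annotated gene in RefSeq (GRCm38.p6), written 5′ to 3′ on the gene's strand, with GGGCGG or its complement on the other strand, the GC box, in capitals. The stretches are chr4:28812916-28813065 (+) for Epha7, chr4:136956860-136957009 (-) for Epha8, chr10:80179332-80179481 (+) for Efna2 and chr17:62881318-62881467 (-) for Efna5.
Epha7: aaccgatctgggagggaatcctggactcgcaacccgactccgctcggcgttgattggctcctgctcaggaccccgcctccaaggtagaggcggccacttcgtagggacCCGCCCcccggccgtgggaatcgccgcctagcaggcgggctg
Epha8: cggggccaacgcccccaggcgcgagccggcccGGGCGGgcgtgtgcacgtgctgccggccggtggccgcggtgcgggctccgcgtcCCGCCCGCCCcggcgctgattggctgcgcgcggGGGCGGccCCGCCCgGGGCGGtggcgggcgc
Efna2: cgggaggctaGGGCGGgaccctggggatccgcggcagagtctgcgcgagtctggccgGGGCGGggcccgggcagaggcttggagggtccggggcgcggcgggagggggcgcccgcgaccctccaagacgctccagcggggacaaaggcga
Efna5: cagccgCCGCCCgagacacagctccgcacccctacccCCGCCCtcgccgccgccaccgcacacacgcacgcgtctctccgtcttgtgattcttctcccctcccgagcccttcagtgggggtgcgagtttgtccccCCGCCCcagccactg
All are rich in G and C, with 68.7%, 87.3%, 78.0% and 71.3% in the order printed, and hold 1, 6, 2 and 3 GC boxes, counting those that overlap. Over the longer RefSeq windows of 300 bases around each start, which matched all 10 genes with 13 windows, 11 windows held a GC box, against 35.7% of 32851 windows of all genes, and the GC content of the family ran from 55.7% to 84.3% against a median of 52.7%. TATAAA, the TATA box, was in 0 of the 13 windows and in 13.6% of all. CTTTGAT, read by Tcf/Lef factors, was also in 0, against 3.73% of all. TAATTA, the core read by many homeodomain factors, was in 2 windows, those of Epha5 and Efna1, against 5.29% of all. CANNTG, the E-box, was in 2, those of Epha8 and Efna3, against 72.3% of all. Both strands were searched. Epha5, whose groups overlapped, also held a GC box.

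Other genes of the pathway were each counted at the gene's brightest probe set, where 5 of the 10 members had both knockout arrays below the controls and 2 were lower at an unadjusted p under 0.05. Of 6 other EphA and EphA-binding ephrin genes, 0 had both knockout arrays below the controls and 4 had both above, against 13.9% and 15.8% of all genes. Efnb2, a ligand that Epha4 binds, read 8.52 and 8.66 in the knockout and 7.80, 7.66 and 7.88 in the control (0.81 ± 0.12, SE; limma adjusted p = 0.131). Epha1 (0.49), Epha2 (0.25) and Efnb3 (0.19) also had both knockout arrays above the controls, where Epha2 at levels of 4.93 to 5.24 was dim. In limma 0 of the 6 passed the adjusted threshold, which 0.104% of genes did at their brightest probe set, and 1 was higher and 0 lower at an unadjusted p under 0.05, against 6.90% and 4.90% of all genes.

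Of 36 measured genes of forward signalling, the path from an activated EphA receptor to the cytoskeleton, 7 had both knockout arrays below and 7 above the controls, with a median log2 fold change of 0.01. The 7 are 19.4% of the list, near the 13.9% and 15.8% over all genes. None passed the adjusted threshold in limma, and 2 were lower and 3 higher at an unadjusted p under 0.05, against 4.90% and 6.90% of all genes. Ngef, an exchange factor of the ephexin family that acts directly downstream of EphA receptors, read 7.83 and 7.62 in the knockout against 6.84, 6.39 and 7.11 (0.94 ± 0.23, SE; limma adjusted p = 0.264). Tiam1, an exchange factor for Rac, differed by 0.71 and Rhoa, the GTPase that collapses growth cones, by 0.61. Sipa1l2, of a family of Rap inhibitors, differed by -0.52, from 12.47 to 12.56 in the control to 12.06 and 11.96 in the knockout.

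Of 12 genes of ephrin-A shedding, anchoring and reverse signalling, 2 had both knockout arrays below and 3 above the controls, against 13.9% and 15.8% of all genes. In limma 0 passed, and 2 were lower and 2 higher at an unadjusted p under 0.05, against 4.90% and 6.90%. Ntrk3, a neurotrophin receptor, read 8.66 and 8.30 against 7.54, 7.85 and 7.35 (0.90 ± 0.20, SE; limma adjusted p = 0.232). Pgap1, which remodels lipid anchors of the ephrin-A kind, differed by 0.38 and Pigk, a subunit of the enzyme that attaches them, by -0.58. Adam12, a metalloprotease, differed by -0.48.

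The genes whose values over the 5 arrays, each centred on its own mean, were nearest to Epha7 at 1451991_at were Btbd3, Ttc28 and Epb41l3. Their root mean square differences from it were 0.052, 0.056 and 0.084 on the log2 scale, the smallest of 20181 probe sets of other genes above the median level. Btbd3, which takes part in orienting dendrites, read 9.38 and 9.23 in the knockout arrays and 10.43, 10.33 and 10.82 in the controls. Both knockout arrays lay below the controls and control replicate 3 was the highest, as for Epha7, which follows from picking the nearest genes. This likeness over 5 arrays was not tested.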

How the data were processed

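Gene expression was measured in 5 pools with Affymetrix arrays. Per the labels' protocols, dLGN tissue was microdissected from sections of 200 µm and 20 ng of total RNA was amplified and biotin-labelled. Each deposited value is the log2 expression of a probe set. The authors used RMA, per the submitters' processing notes. This method removes background, equalises the distributions of the arrays and combines the probes of each set, so it compresses differences near the background and hides a change shared by most genes. Its version is not given in the sources used here.

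Of 45101 probe sets, 64 array controls were left out and none was dropped for a low level. Of the 45037 tested, 34945 had 1 gene, 932 several and 9160 none in the platform annotation; all 27 of the family kept their symbol in RefSeq by gene ID. Knockout and control were compared by lmFit and eBayes (limma 3.58.1, R 4.3.3) in a two-sided test with genotype as the only term, and p-values were adjusted over all probe sets. There were 2.52 prior and 3 residual degrees of freedom. An exact permutation test of 2 against 3 arrays could not give a p below 0.1 and was not used. Intervals at 95% come from the fit. Pathway genes and markers were each read at the gene's brightest probe set; up to 4 genes per pathway list, those with the smallest p, and the 3 nearest to the family's probe set with the smallest p were named. The members and lists were chosen with earlier results of these data known. Alternatives were a block for the replicate number, quantile normalisation of the deposited values, centring, leaving out dim probe sets, a trend or robust prior, array weights, each array left out and the mean of a gene's probe sets.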

Additional observations from a re-analysis of the deposited data

Results flagged for a closer look

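The array carries its own probe sets for both ends of 2 housekeeping transcripts, and the comparison did not use them. For Gapdh the signal of the 3′ end minus that of the 5′ end was 2.34 (log2) in knockout replicate 1. This was further above the highest control, 1.32, than the whole range of the controls (0.55). Actb gave 1.91 in that array, above the highest control at 1.45 by less than the range of the controls (0.83).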

How the results depend on the processing

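The count of EphA and ephrin-A probe sets past the adjusted threshold was 0 under every alternative run, with a smallest adjusted p between 0.0916 (dim probe sets left out) and 0.459 (without control replicate 1). The count with both knockout arrays below every control was 17 under the alternatives that kept all arrays and probe sets, 15 of 23 with dim probe sets left out (18.2% of all probe sets), 6 of 10 as the mean of a gene's probe sets (16.4% of all genes), and 17 to 22 with an array left out (19.4% to 34.1% of all probe sets, the 22 against 34.1%). Over all probe sets, 33 passed the adjusted threshold. With the replicate number as a block 0 did (4950 at an unadjusted p under 0.05), with dim probe sets left out 98, with an intensity trend 100, with array weights 19, as the mean of a gene's probe sets 99, and with any array left out 0 to 0 (3694 to 8397 at an unadjusted p under 0.05). The labels give the replicate numbers no meaning. Deviations from the group means correlated at 0.148 and 0.212 within the 2 numbers that both groups share. The deviations of the 2 knockout arrays mirror each other, so the crossed pairs gave the same sizes with the opposite sign (-0.212 and -0.148). These are too few pairs to decide on a pairing.

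Of the 27 log2 fold changes, 20 kept their sign under every alternative run. Epha5 at 1420557_at, at 0.00 in the comparison, turned positive with the replicate block (0.05), further quantile normalisation (0.0012) and array weights (0.01), and lay between -0.21 and 0.20 with an array left out. Efna1 at 1448510_at, also at 0.00, turned positive with quantile normalisation (0.01) and centring (0.0018), and lay between -0.31 and 0.36. With an array left out the sign also turned at Epha3 1455426_at (-0.32 to 0.01), Epha4 1429021_at (-0.29 to 0.03), Epha5 1437920_at (-0.39 to 0.16), Efna3 1455344_at (-0.37 to 0.04) and Efna4 (-0.17 to 0.54). The cause was not tested.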
